A study of Mus musculus with 9 samples.

Results

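The 9 genes described here encode enzymes of the mitochondrial citric acid cycle and of the step that feeds it. They are Pdha1, Cs, Idh3a, Idh3b, Idh3g, Ogdh, Suclg1, Fh1 and Mdh2, taken by symbol from a deposited table of 23317 genes, and all 9 passed the filter on low counts. The table came from low-input RNA sequencing of cells labelled as haematopoietic stem cells (HSCs), the marrow cells from which every blood lineage derives, sorted from the bone marrow of wild-type mice. There were 9 libraries in 3 groups of 3. The groups are labelled as young HSC, as old HSC, and as old HSC treated with ABC294640, an inhibitor of sphingosine kinase 2 (SphK2). The protocol gives mouse ages of 2 to 4 months or 20 to 24 months, read here as the young and the old groups. Each library was made from 1500 sorted cells with 12 cycles of amplification. The labels give neither the dose, route and duration of the inhibitor nor the sorting markers, and do not say whether replicates are separate animals. P-values therefore measure the spread between these libraries, which may be technical.

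The cycle takes the acetyl group of acetyl-CoA, oxidises it to carbon dioxide and passes the electrons to the respiratory chain as NADH and reduced flavin. Pyruvate dehydrogenase makes acetyl-CoA from pyruvate, and so joins glycolysis to the cycle. HSCs at rest are known for a glycolytic metabolism with low mitochondrial respiration, and leaving quiescence is accompanied by more use of the cycle.

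Library totals ran from 16663445 to 23254115 counts, and the ranges of the 3 groups overlapped. Each of the 10 HSC markers examined was detected. Levels are given as CPM (counts scaled by library size), and they are compared between genes only after division by the length of the annotated exons, as CPM per kilobase (kb). In young HSC, Kit was at 13.3 ± 0.512 CPM per kb and Meis1 at 8.63 ± 0.197 (mean ± SD, n = 3, as for every level below), while Procr, Hoxb5 and Fgd5 were at 1.91 ± 0.10, 0.805 ± 0.145 and 0.202 ± 0.0178. Among the 10, Ly6a was highest at 72.0 ± 1.27 CPM per kb. The granule protein genes Mpo and Elane of myeloid progenitors stood at 3289 ± 139 and 11326 ± 1074 CPM per kb in the same libraries, above each of the 10 HSC markers. The Y-linked genes Eif2s3y, Ddx3y, Kdm5d and Uty summed to 8.25 to 10.3 CPM in young, 128 to 142 CPM in old and 123 to 146 CPM in treated old libraries. Age cannot be told apart from the sex of the mice as these genes show it. In these bulk samples, a change in the share of a cell type and a change in RNA per cell cannot be told apart either.

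Transcripts of the 9 genes were abundant and differed widely in level. Mdh2, which encodes the malate dehydrogenase that closes the cycle by making oxaloacetate, was highest at 246 ± 11.9 CPM per kb in young HSC. Idh3g followed at 191 ± 9.16 CPM per kb. Suclg1 was at 65.6 ± 1.10, Idh3a at 52.9 ± 0.623 and Fh1 at 51.4 ± 0.749 CPM per kb. Pdha1 was at 28.3 ± 0.721, Idh3b at 23.9 ± 0.994, Cs at 22.8 ± 1.38 and Ogdh, the lowest, at 15.4 ± 1.09 CPM per kb. In young HSC the neighbours Idh3a and Fh1 (52.3 to 53.5 against 50.7 to 52.1 CPM per kb) differed by little more than their spread, and Idh3b and Cs overlapped. In old HSC the first of these pairs stood apart, at 62.9 to 65.9 CPM per kb for Idh3a and 47.4 to 48.0 for Fh1, while Cs and Idh3b still overlapped. Even Ogdh lay above 80.4% of the 14227 tested genes on the per-length scale, and Mdh2 above 98.1%.

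**Figure D1:**
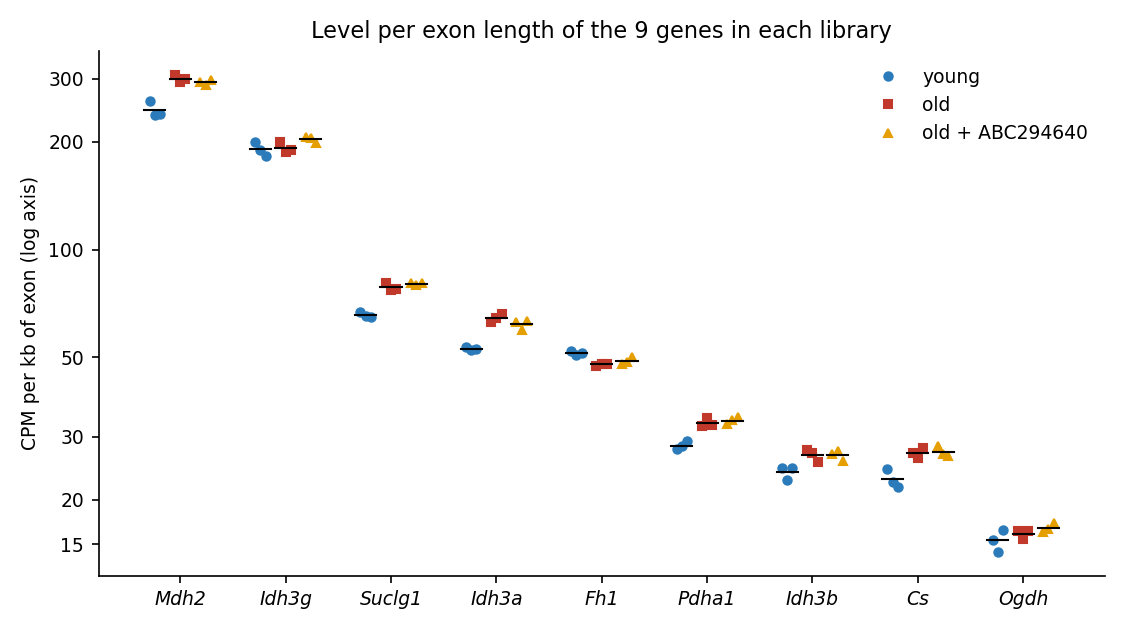
Level of each gene in each library as CPM per kb of annotated exon on a log axis, by group (3 libraries each; black bars are group means). Mdh2 and Idh3g stood well above the other 7 genes in all libraries, and Idh3a and Fh1 lay side by side in young HSC but not in old HSC.

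Old HSC were first set against young HSC, the question being which of these transcripts differ between the groups, whose age and sex cannot be told apart. Of the 9 genes, 6 rose in old HSC by 1.11- to 1.22-fold, namely Mdh2, Idh3a, Suclg1, Cs, Pdha1 and Idh3b. Idh3g, Ogdh and Fh1 did not pass the threshold, an adjusted p under 0.05 over all 14227 genes tested by the quasi-likelihood test of edgeR. None of the 9 fell past it, although at an unadjusted p under 0.05 the count was 6 higher and 1 lower (Fh1). DESeq2 called 6 and 0 too. Over all tested genes, 19.6% rose and 19.8% fell. Among the 2008 genes whose mean CPM was at least that of the lowest of the 9, 43.9% rose and 14.8% fell, so a share of 6 in 9 is to be read against the higher figure. The median log2 fold change of the 9 was 0.21, against -0.03 over all genes. The 9 genes summed to 2491 to 2635 CPM in young and to 2854 to 2950 CPM in old libraries, with no overlap.

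These are small differences. Processing changed the size of all of them, and scaling also changed the call of the smallest. Over 15 alternative settings, the largest log2 fold change, that of Mdh2, ran from 0.20 to 0.34. With upper-quartile scaling or with a stricter filter (5 CPM in at least 3 libraries), 5 of the 9 rose, Idh3b was no longer called (adjusted p = 0.311 and 0.0818) and Fh1 fell (adjusted p = 0.00125 and 0.00672). Upper-quartile scaling also changed the split over all genes from 2788 higher and 2818 lower to 1823 higher and 3988 lower. Tested for changes beyond 1.2-fold, none of the 9 was called.

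At the entry to the cycle stands Pdha1 (ENSMUSG00000031299, chromosome X, 160122209 to 160138413 in GRCm38), which encodes the alpha subunit of the decarboxylating enzyme of the pyruvate dehydrogenase complex and carries the serines whose phosphorylation switches the complex off. It was at 103, 106 and 109 CPM in the young libraries, at 119.8, 127 and 121 CPM in old ones and at 122, 124 and 127 CPM in treated old ones. All old and treated libraries thus lay above all young ones. The rise in old HSC was 1.16-fold (log2 fold change 0.21 ± 0.047 (SE), adjusted p = 0.00122). Of its exon bases, 16.1% lie on the opposite strand of exons of Map3k15, and strand is not stated for the counting. Map3k15 itself was at 1.69 ± 0.227 CPM in young and 1.07 ± 0.212 CPM in old HSC. Of the stretches of 31 bases in Pdha1 transcripts, 15.8% recur in other genes, and 0% of its deposited values were whole. For Suclg1 and Fh1 0% were whole too, and for Cs and Idh3b 55.6%. Whether shared reads affect the count of Pdha1 or of these other genes was not tested.

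Cs (ENSMUSG00000005683, chromosome 10, 128337734 to 128362479) encodes citrate synthase, which condenses acetyl-CoA with oxaloacetate and whose activity is often taken as a measure of mitochondrial mass. Its levels were 141, 129.5 and 125 CPM in young, 156, 151 and 161 CPM in old and 163, 155 and 153 CPM in treated old libraries. The young libraries spread more than the old ones, yet the groups did not overlap. Cs rose 1.18-fold (log2 fold change 0.24 ± 0.051, adjusted p = 0.000865).

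The NAD-dependent isocitrate dehydrogenase is built from a catalytic alpha subunit (Idh3a) with beta (Idh3b) and gamma (Idh3g) subunits. Idh3a (ENSMUSG00000032279, chromosome 9, 54586334 to 54604661) was at 271, 265 and 268 CPM in young and at 319, 327 and 334 CPM in old libraries, the second largest change of the 9 at 1.22-fold (log2 fold change 0.28 ± 0.042, adjusted p = 2.13e-05). Idh3b (ENSMUSG00000027406, chromosome 2, 130279309 to 130284547) was at 83.8, 77.9 and 83.8 CPM in young and at 94.4, 92.3 and 86.9 CPM in old libraries. The groups did not overlap, but old replicate 3 lay close to the young libraries. Its rise of 1.11-fold (log2 fold change 0.16 ± 0.052, adjusted p = 0.0217) was not called without young replicate 2 (adjusted p = 0.0729) or without old replicate 1 (adjusted p = 0.0828).

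Idh3g (ENSMUSG00000002010, chromosome X, 73778963 to 73786897) was at 541, 513 and 492 CPM in young and at 538, 506 and 512 CPM in old libraries, and these ranges overlapped almost entirely. Its log2 fold change was 0.01 ± 0.044 (adjusted p = 0.894), with a 95% interval of -0.08 to 0.10 that leaves out a rise of the size seen for Idh3a, and its sign turned with upper-quartile scaling, with the stricter filter and without young replicate 3 or old replicate 1. Ratios between genes of 1 library do not depend on how libraries are scaled. Per exon length, the ratio of Idh3g to Idh3a was 3.45 to 3.75 in young, 2.88 to 3.17 in old and 3.14 to 3.45 in treated old libraries, so that the young and old libraries did not overlap. This gap restates the levels of Idh3a and Idh3g given above, and the difference between the pair was not tested. The ratio of Idh3a to Idh3b was 2.16 to 2.30 in young and 2.28 to 2.59 in old libraries, and that of Idh3g to Idh3b was 7.44 to 8.35 and 6.95 to 7.46, and both of these overlapped. Of the pair of genes of the 9 on the X chromosome, one (Pdha1) was higher in old HSC and the other (Idh3g) was not called. The part of sex in these results was not tested.

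Ogdh (ENSMUSG00000020456, chromosome 11, 6291633 to 6356642) encodes the decarboxylating subunit of the 2-oxoglutarate dehydrogenase complex. It was at 84.3, 78.0 and 89.8 CPM in young and at 89.1, 84.8 and 89.1 CPM in old libraries. The old values lay within the span of the young ones, and the change was not called (log2 fold change 0.06 ± 0.055, adjusted p = 0.404, 95% interval -0.05 to 0.17, and -0.03 with upper-quartile scaling). Suclg1 (ENSMUSG00000052738, chromosome 6, 73248382 to 73276911) encodes the alpha subunit shared by the GTP- and ATP-forming succinyl-CoA ligases. Its levels were 309, 301 and 299 CPM in young, 373, 355 and 358 CPM in old and 372, 368 and 372 CPM in treated old libraries. The gap between young and old was several times the spread within either group, and Suclg1 rose 1.19-fold (log2 fold change 0.26 ± 0.041, adjusted p = 5.05e-05).

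Fh1 (ENSMUSG00000026526, chromosome 1, 175600374 to 175625635) encodes fumarate hydratase, which turns fumarate into malate. It was the only one of the 9 whose mean was lower in old HSC. It was at 177, 172 and 174 CPM in young, 161, 162 and 163 CPM in old and 163, 165 and 169.7 CPM in treated old libraries, with every old library below every young one. With the test fitted over all genes the difference narrowly missed the threshold (log2 fold change -0.11 ± 0.043, adjusted p = 0.0554), and it was called with counts thinned to equal depth (adjusted p = 0.0424) beside the settings named above. Mdh2 (ENSMUSG00000019179, chromosome 5, 135778480 to 135790398), the enzyme that follows fumarate hydratase, was at 925, 849 and 853 CPM in young, 1099, 1050 and 1066 CPM in old and 1046, 1028 and 1059 CPM in treated old libraries. It had the largest change of the 9, a rise of 1.22-fold (log2 fold change 0.29 ± 0.042, adjusted p = 1.27e-05). Per exon length, the ratio of Mdh2 to Fh1, a pair chosen after the values were seen, was 4.67 to 4.98 in young, 6.16 to 6.51 in old and 5.94 to 6.13 in treated old libraries. The choice fixes the direction of this ratio, and the difference between the pair was not tested.

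Of the 9 genes, 7 had libraries that did not overlap between young and old HSC, 6 of them higher in old and 1 (Fh1) lower. Over all genes tested, 22.8% were higher and 25.6% lower without overlap, and among the 2008 genes at like levels 46.8% and 15.1%. The spread between libraries of a group was low throughout, with a coefficient of variation from 1.58% for Fh1 to 4.70% for Ogdh.

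**Figure D2:**
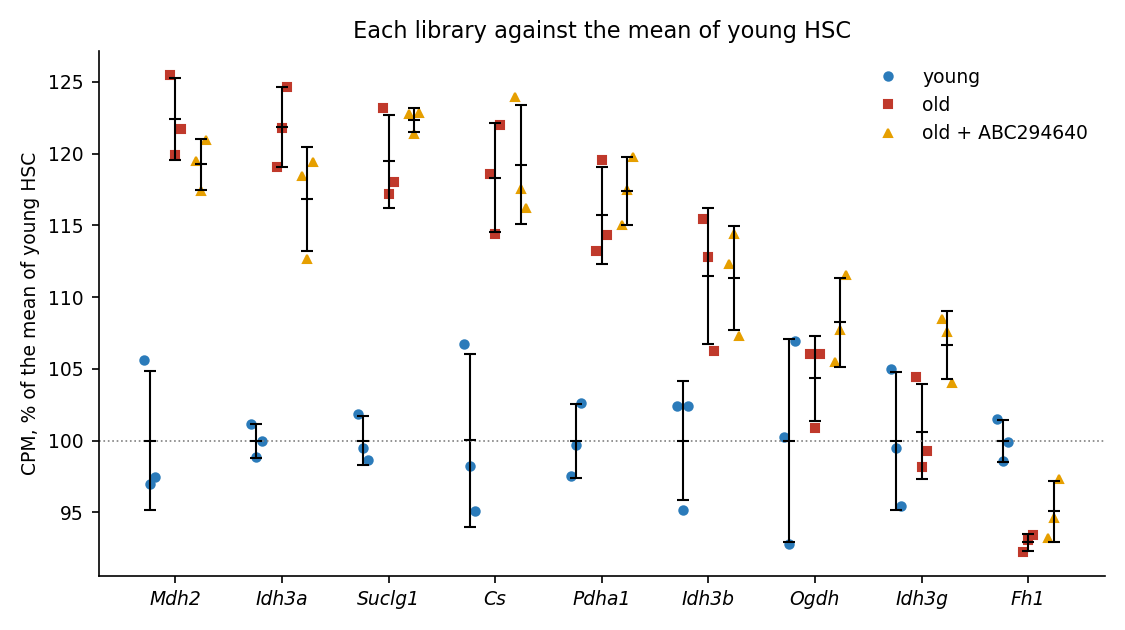
CPM of each gene in each library as a percentage of the mean of young HSC, by group (points are libraries, bars are mean ± SD, n = 3). Old and treated old libraries lie above all young ones for Mdh2, Idh3a, Suclg1, Cs, Pdha1 and Idh3b, where Idh3b is not called with upper-quartile scaling or the stricter filter, and below them for Fh1.

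The sequences before the RefSeq starts of 5 genes are given because these genes contrast in response, Mdh2, Cs and Suclg1 having risen and Fh1 and Idh3g not. Each is the 250 bases upstream of the start in RefSeq (GRCm38.p6), on the strand of the gene. For Mdh2, Cs and Suclg1 the gene starts printed further above differ from the RefSeq starts. The windows of Mdh2 and Suclg1 reach past the printed starts into the gene. For Fh1 and Idh3g, on the minus strand, the printed and RefSeq starts coincide. Capitals mark matches, on either strand, to letters associated with transcription factors of mitochondrial and housekeeping genes. The letters searched were TCAAGGTCA (estrogen-related receptors), the palindromic core of NRF1 sites (10 letters), CCGGAAGT (ETS factors and GABP), AAGATGGCG (YY1), GGGCGG (SP factors) and CACGTG (E-box).
Mdh2 (chr5:135778399-135778648, plus strand): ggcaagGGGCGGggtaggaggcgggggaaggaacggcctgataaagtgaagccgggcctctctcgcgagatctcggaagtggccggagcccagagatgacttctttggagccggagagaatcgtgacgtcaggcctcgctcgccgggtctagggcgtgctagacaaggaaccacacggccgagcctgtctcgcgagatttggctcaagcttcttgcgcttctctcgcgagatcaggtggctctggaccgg
Cs (chr10:128337477-128337726, plus strand): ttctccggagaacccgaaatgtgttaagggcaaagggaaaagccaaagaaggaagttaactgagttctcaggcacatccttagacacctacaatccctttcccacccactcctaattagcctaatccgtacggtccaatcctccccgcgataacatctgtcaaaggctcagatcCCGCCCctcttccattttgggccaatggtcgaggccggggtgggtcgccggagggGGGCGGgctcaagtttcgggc
Suclg1 (chr6:73248255-73248504, plus strand): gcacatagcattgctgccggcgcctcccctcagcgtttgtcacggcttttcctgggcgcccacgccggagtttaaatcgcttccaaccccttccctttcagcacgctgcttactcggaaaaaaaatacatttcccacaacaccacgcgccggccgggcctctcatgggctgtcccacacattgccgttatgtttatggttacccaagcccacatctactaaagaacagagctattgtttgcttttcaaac
Fh1 (chr1:175625636-175625885, minus strand): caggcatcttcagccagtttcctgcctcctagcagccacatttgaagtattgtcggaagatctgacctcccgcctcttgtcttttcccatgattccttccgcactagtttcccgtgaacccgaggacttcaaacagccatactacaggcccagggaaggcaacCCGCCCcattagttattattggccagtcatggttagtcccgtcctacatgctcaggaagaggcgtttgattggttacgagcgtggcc
Idh3g (chrX:73786898-73787147, minus strand): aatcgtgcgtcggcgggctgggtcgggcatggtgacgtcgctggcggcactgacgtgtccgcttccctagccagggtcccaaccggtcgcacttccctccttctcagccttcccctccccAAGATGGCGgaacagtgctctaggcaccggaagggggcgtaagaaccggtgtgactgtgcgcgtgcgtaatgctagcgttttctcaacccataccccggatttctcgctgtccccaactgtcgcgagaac

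GGGCGG or its complement occurred before Mdh2, Cs, Fh1 and Ogdh. The 8 genes found in the table have 13 windows, 6 of them of Ogdh, and 5 of the 13 (38.5%) held it, against 32.7% of all 32851 windows of this length. It was thus found both before genes that rose and before genes that were not called. AAGATGGCG occurred before Idh3g alone (0.606% of all windows) and CACGTG before Ogdh alone (6.02%), in 3 of its windows, some of which share bases. The letters for the estrogen-related receptors, NRF1 and GABP matched in none of the 8 genes, and they occur in 0.387%, 0.782% and 2.88% of all windows. The GC content of the 13 windows ran from 46.8% (Idh3b) to 74% (1 of the 6 of Ogdh), and in the 5 printed from 52.8% (Fh1) to 63.2% (Mdh2), with a median of 52.4% over all windows. Matches of letters are a description and say nothing of whether a factor is bound.

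The comparison of treated with untreated old HSC asks what differs with ABC294640, and the labels do not say whether mice or cells were treated. None of the 9 genes rose or fell in treated against untreated old HSC by edgeR, where 0.766% of all genes rose and 0.429% fell, and 4.08% and 0.946% of genes at like levels did. At an unadjusted p under 0.05 the count was 0 as well, and DESeq2 called 0. The median log2 fold change of the 9 was 0.02, and 0.00105 over all genes. The libraries of the 2 groups overlapped for all 9, while 15.5% of all genes had groups without overlap. Idh3g came nearest, at 559, 554 and 536 CPM in treated libraries against 538, 506 and 512 CPM in untreated ones (log2 fold change 0.08 ± 0.044, unadjusted p = 0.0717, adjusted p = 0.626). Idh3a was lower on average, at 318, 302 and 320 CPM against 319, 327 and 334 CPM (log2 fold change -0.06 ± 0.042, adjusted p = 0.762). The unadjusted 95% intervals of all 9 lay between 0.902-fold and 1.13-fold. Sphk2, which encodes the enzyme named as the target, was at 7.74 ± 1.35 CPM in untreated and 6.35 ± 0.279 CPM in treated old HSC (adjusted p = 0.621), with libraries that did not overlap. The transcript level of Sphk2 does not show whether the enzyme was inhibited. Sphk1, the gene of the other sphingosine kinase, was not called in treated against untreated old HSC. It fell in old against young HSC (log2 fold change -0.825, adjusted p = 8.21e-06), where 19.8% of all genes fell.

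Treated old HSC were also set against young HSC, a comparison that shares its young libraries with the one above. The same 6 genes rose and 0 fell by edgeR, over a background of 19.1% of all genes higher and 18.5% lower. Among genes at or above the lowest level of the 9, 45.5% rose and 8.47% fell. At an unadjusted p under 0.05, 7 were higher, Idh3g being the addition, and 0 lower. Suclg1 had the largest change here (log2 fold change 0.29 ± 0.041, adjusted p = 1.26e-05), followed by Mdh2 (0.25 ± 0.042, adjusted p = 7.21e-05), Cs (0.25 ± 0.051, adjusted p = 0.000611), Pdha1 (0.23 ± 0.047, adjusted p = 0.00057), Idh3a (0.22 ± 0.042, adjusted p = 0.000322) and Idh3b (0.15 ± 0.052, adjusted p = 0.0254). Idh3b was again not called with upper-quartile scaling (adjusted p = 0.4), with the stricter filter (0.152), without young replicate 2 (0.0982), or without treated replicate 1 (0.0589) or 2 (0.0635). Ogdh and Idh3g were close to the threshold (adjusted p = 0.109 and 0.105) and rose with no filter (0.025 and 0.0103). Ogdh was also called without young replicate 3 (0.0316) and Idh3g without young replicate 1 (0.0155). Fh1 was at -0.07 ± 0.043 (adjusted p = 0.194), and it fell with upper-quartile scaling (0.00447) and with the stricter filter (0.0179).

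**Figure D3:**
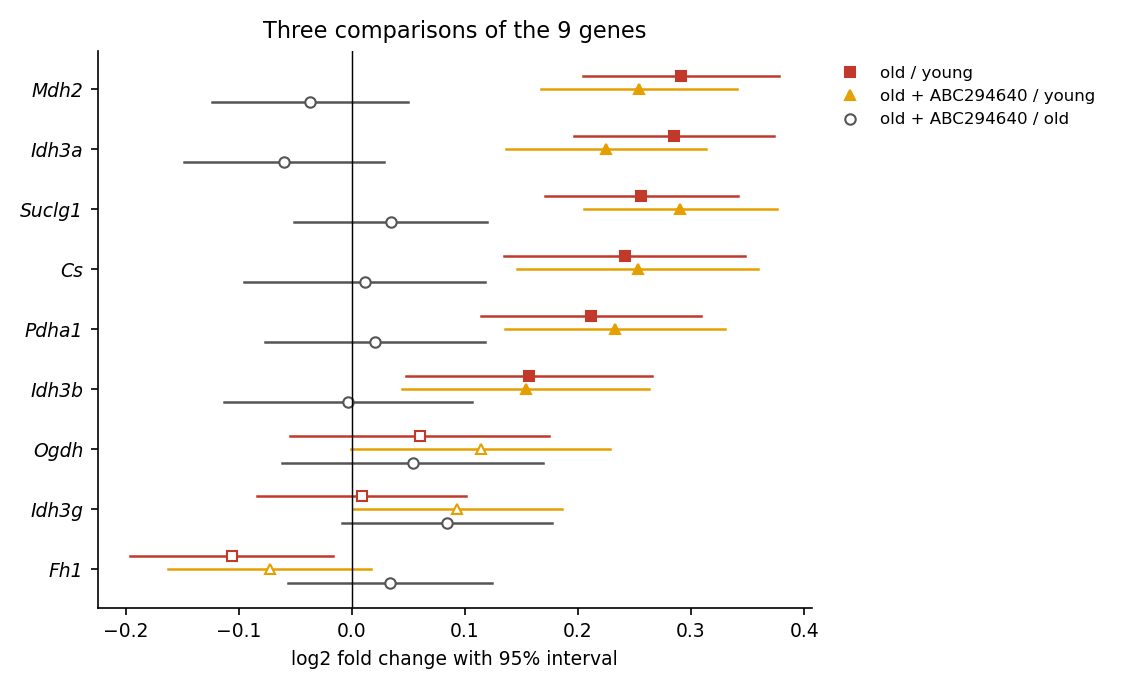
Log2 fold changes of the 9 genes with 95% intervals (edgeR, 3 libraries a group) for old against young, treated old against young and treated against untreated old HSC. Filled symbols have an adjusted p under 0.05, and all 9 intervals of the treated against untreated comparison include 0. The comparisons share libraries, and the Idh3b call ends and Fh1 falls with upper-quartile scaling or the stricter filter.

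The rest of the pathway was counted from lists of genes that do not overlap with the 9. Their counts in old against young HSC are to be read against 19.6% higher and 19.8% lower over all genes. Among genes at or above the lowest level of the 9, 43.9% rose and 14.8% fell, and some listed genes lie below that level. Of 10 other enzymes of the cycle, 5 rose and 1 fell in old against young HSC, with a median log2 fold change of 0.13 against -0.03 over all genes, and 4 rose and 1 fell with upper-quartile scaling. The rises included Dld, the lipoamide dehydrogenase that pyruvate and 2-oxoglutarate dehydrogenase share, from 121 ± 14.3 to 160 ± 11.9 CPM (1.33-fold, adjusted p = 9.54e-05). Idh2, the NADP-dependent mitochondrial isocitrate dehydrogenase, rose from 372 ± 15.4 to 442 ± 18.0 CPM (adjusted p = 0.000225), and Sucla2, the beta subunit of the ATP-forming partner of Suclg1, rose from 121 ± 9.75 to 146 ± 5.96 CPM (adjusted p = 0.000601). The gene that fell was Sdhb, the iron-sulfur subunit of succinate dehydrogenase, from 426 ± 21.3 to 361 ± 12.9 CPM (a log2 difference of -0.24, adjusted p = 0.000341). The other 3 subunits of that enzyme did not fall. Sdhd, chosen after its values were seen, rose from 485 ± 23.3 to 539 ± 9.63 CPM (adjusted p = 0.00862, and 0.26 with upper-quartile scaling), and Sdha and Sdhc were not called (log2 fold changes 0.10 and 0.06, adjusted p = 0.14 and 0.349).

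All 3 other subunits of the pyruvate dehydrogenase complex rose, as did Pdha1. Dlat, the acetyltransferase core, rose from 33.3 ± 1.29 to 44.3 ± 2.82 CPM (1.33-fold, adjusted p = 3.49e-05). Pdhb, the beta partner of Pdha1, rose from 219.8 ± 7.40 to 254 ± 4.29 CPM (adjusted p = 0.000703), and Pdhx, which binds Dld to the core, from 38.6 ± 0.681 to 44.3 ± 0.857 CPM (adjusted p = 0.0133, and 0.154 with upper-quartile scaling). Of the 7 kinases and phosphatases that switch the complex, 1 rose and 1 fell. These were Pdk1, an inhibiting kinase, from 35.2 ± 2.29 to 41.4 ± 1.51 CPM (adjusted p = 0.0115, and 0.102 with upper-quartile scaling), and Pdp2, an activating phosphatase, from 32.8 ± 1.03 to 28.1 ± 0.720 CPM (adjusted p = 0.0122, and 0.078 with no filter).

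Of 7 mitochondrial carriers, 4 rose and 0 fell, by edgeR at unadjusted and adjusted p alike. Mpc1, a subunit of the pyruvate carrier, rose from 313 ± 3.49 to 424 ± 5.76 CPM (1.35-fold, adjusted p = 3.8e-08). Of the stretches of 31 bases in Mpc1 transcripts, 30.8% recur in other genes, so its count is uncertain. The dicarboxylate carrier gene Slc25a10 rose from 21.7 ± 1.23 to 27.1 ± 1.06 CPM (adjusted p = 0.00275), and the aspartate-glutamate carrier genes Slc25a12 (adjusted p = 0.00594) and Slc25a13 (adjusted p = 0.0291) rose as well, although with upper-quartile scaling neither was called (adjusted p = 0.117 and 0.152). Of 13 enzymes that feed or drain the cycle or are cytosolic counterparts, 2 rose and 2 fell. The mitochondrial malic enzyme gene Me2 rose from 80.3 ± 3.52 to 104.5 ± 1.32 CPM (adjusted p = 4.4e-06) and the mitochondrial aspartate aminotransferase gene Got2 from 60.5 ± 2.68 to 79.3 ± 3.45 CPM (adjusted p = 7.95e-06), where 30.9% of the stretches of Got2 recur elsewhere. Me3, an NADP-dependent malic enzyme, fell from 52.9 ± 1.24 to 44.8 ± 0.744 CPM (adjusted p = 0.00283), and Pck2, which makes phosphoenolpyruvate in mitochondria, from 36.8 ± 3.10 to 32.3 ± 1.30 CPM (adjusted p = 0.0482, and 0.0672 with the size factors of DESeq2).

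Of 5 genes of lipoic acid attachment, needed by the acyltransferase cores of both dehydrogenase complexes, Lias rose (log2 fold change 0.16, adjusted p = 0.0215) and Fdx2 (-0.32, adjusted p = 0.0226) and Lipt1 (-0.38, adjusted p = 0.026) fell. The libraries of Fdx2 overlapped, and 71.4% of the 31-base stretches of its transcripts recur in other genes, so its count is uncertain. Lias was not called with upper-quartile scaling (adjusted p = 0.294), nor Lipt1 by DESeq2 (adjusted p = 0.063). Of 10 transcription factors and cofactors of mitochondrial biogenesis, 2 rose and 1 fell. Gabpa rose from 34.2 ± 2.36 to 43.4 ± 1.14 CPM (adjusted p = 0.00429) and Yy1 from 26.4 ± 0.476 to 30.1 ± 0.651 CPM (adjusted p = 0.0312, and 0.254 with upper-quartile scaling), and the coactivator gene Ppargc1b fell from 4.48 ± 0.226 to 2.90 ± 0.140 CPM (adjusted p = 0.00648). In treated against untreated old HSC, 0 genes of these 7 lists passed the threshold by edgeR. At an unadjusted p under 0.05 the count was 1 higher and 1 lower among the side routes, 1 lower among the biogenesis factors and 0 in the other 5 lists. DESeq2 called 0 as well. In treated old against young HSC, which shares the young libraries, 5 of the other cycle enzymes rose and 1 fell, all 3 other pyruvate dehydrogenase subunits rose, and 3 carriers rose and 0 fell. There, 3 of the side routes rose and 2 fell, 1 regulator and 1 lipoylation gene rose and 1 of each fell, and 2 biogenesis factors rose and 1 fell. With upper-quartile scaling 3 of the other cycle enzymes, 2 of the subunits and 2 carriers rose, and 1 cycle enzyme and 1 carrier fell.

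**Figure D4:**
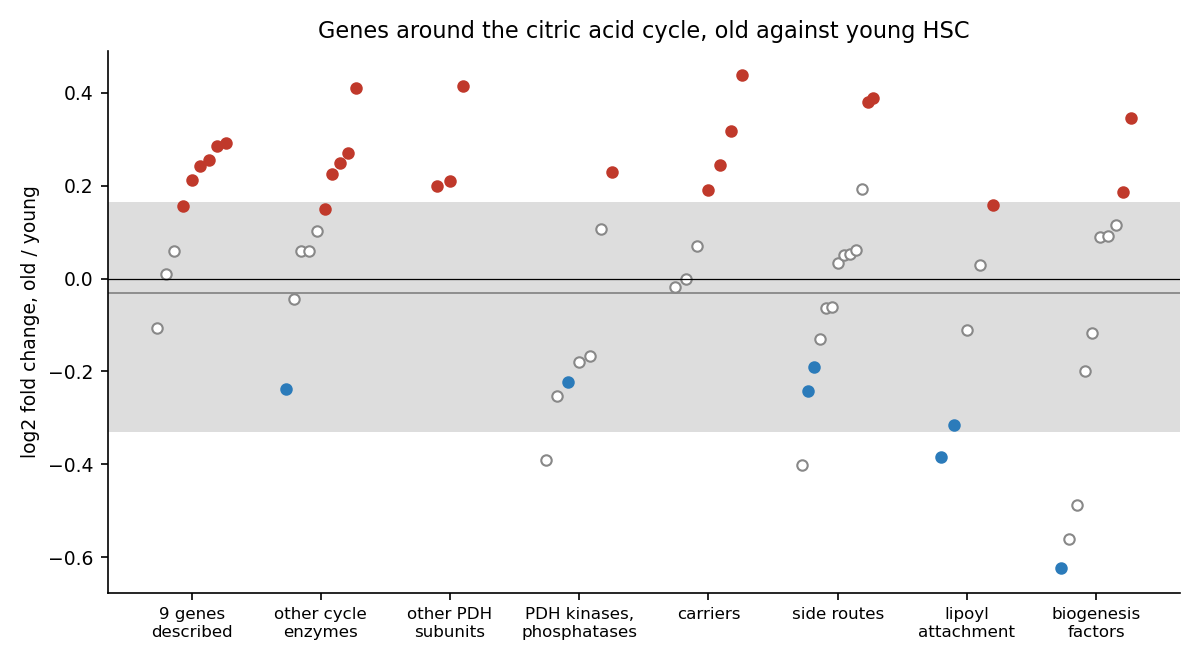
Log2 fold change of old against young HSC for each gene of the 9 and of 7 lists around the cycle (1 point a gene; red rose and blue fell with an adjusted p under 0.05, open points were not called). The grey band spans the lower to the upper quartile of all 14227 genes (-0.33 to 0.17) and the grey line their median (-0.03), from edgeR with TMM scaling.

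Many markers of HSCs and of other cells also differed between young and old libraries, in both directions. Their counts are to be read against 19.6% higher and 19.8% lower over all genes. Among genes at or above the lowest level of the 9, these shares were 43.9% and 14.8%. Of 9 granulocyte and granule markers, 8 rose and 0 fell, and their sum was 30426 to 34284 CPM in young, 47072 to 49963 CPM in old and 46689 to 47683 CPM in treated old libraries. Of 10 HSC markers, 1 rose and 5 fell, with sums of 391 to 404, 327 to 336 and 337 to 345 CPM. With upper-quartile scaling 0 HSC markers rose and 6 fell, and by DESeq2 0 rose and 4 fell. Of 7 erythroid markers, 1 rose and 6 fell (812 to 856, 372 to 375 and 417 to 419 CPM), and of 5 tested megakaryocyte markers 3 fell (428 to 471, 212 to 241 and 278 to 294 CPM). Of 5 monocyte markers, 4 fell (2747 to 2990, 1871 to 2032 and 1932 to 2006 CPM). B cell markers summed to 183 to 204, 191 to 192 and 180.1 to 182 CPM, with 1 of 5 tested higher and 1 lower. T and NK cell markers summed to 1330 to 1485, 1734 to 1891 and 1899 to 2066 CPM, with 1 of 4 tested higher and 1 lower, and Nkg7 made up nearly all of that sum. Stromal and endothelial markers summed to 38.1 to 44.1, 29.7 to 36.8 and 33.2 to 34.1 CPM, with 2 of 5 tested lower. With upper-quartile scaling 4 stromal, 4 megakaryocyte, 3 T and NK cell and 2 B cell markers were lower. By DESeq2 0 stromal markers were lower. In treated against untreated old HSC, 0.766% of all genes rose and 0.429% fell. There 1 erythroid marker (Car1) and 1 megakaryocyte marker (Pf4) rose and 1 B cell list marker (Jchain) fell. In that comparison 0 markers of the other lists were called by edgeR. No marker in the table was at 0 in all libraries. The part of these markers in the results for the 9 genes was not tested.

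Mdh2, the gene of the 9 with the largest difference between old and young HSC, was also compared with every other tested gene by Pearson's r of log2 CPM over the 9 libraries. The closest were Bub3 (r = 0.996), a spindle checkpoint gene, Noc4l (r = 0.996), a gene of ribosome assembly, and Elane (r = 0.995), the neutrophil elastase gene. Elane ran from 10384 to 12352 CPM in young, from 15665 to 17008 CPM in old and from 15573 to 15803 CPM in treated old libraries. Among the 9 genes, r with Mdh2 was 0.961 for Suclg1, 0.95 for Idh3a, 0.948 for Cs, 0.862 for Pdha1 and 0.849 for Idh3b, and it was 0.572 for Ogdh, 0.47 for Idh3g and -0.818 for Fh1. These values describe the libraries only, since they mostly follow the gap between the young group and both old groups.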

How the data were processed

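The deposited table holds an expected count, that is an estimated count of reads, for each gene in each library. The submitters' processing notes name the build mm10 and, without saying what each was used for, edgeR 3.24.3, HTSeq 0.10.0, STAR 2.6.1d and Trim Galore 0.6.2. Only 56% of the non-zero deposited values were whole, and what gave the fractional ones is not stated. Counts were rounded to whole numbers for testing. Library totals ran from 16663445 to 23254115 counts, and reads amplified without molecular identifiers are not independent molecules.

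Groups were taken from the sample labels. The test was the quasi-likelihood test of edgeR 4.0.16 under R 4.3.3 (TMM scaling, default filter by group, a single fit of the 9 libraries by group, Benjamini-Hochberg adjustment over 14227 genes, threshold 0.05). Levels are given as CPM on TMM-scaled library sizes, and per-length levels use the union of annotated exons in GENCODE vM21 (GRCm38). Promoter sequences are from RefSeq. Alternatives were DESeq2 1.42.0 and its size factors, upper-quartile factors, no filter, a filter of 5 CPM in at least 3 libraries, the 2 groups alone, a replicate block, a test against 1.2-fold, thinning to equal depth, and leaving out each library. The fitting code was tested on simulated counts.

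The members and lists were chosen with earlier results of these data known. All 9 genes are named, and of each pathway list the genes past the threshold in old against young or treated against untreated old HSC, at most 4 by smallest p, with short lists in full. For like patterns the 3 highest r were named. Figures were drawn with matplotlib 3.10.9.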

Additional observations from a re-analysis of the deposited data

How the results depend on the processing

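The calls of Cs, Idh3a, Suclg1, Mdh2 and Pdha1 against young HSC held under every alternative run, leave-one-out fits included, except the test against 1.2-fold. Over the 3 comparisons and all alternatives, 362 values of the 9 genes kept their direction and side of the threshold, 21 lost the call, 9 gained it and 13 changed sign. In old against young HSC, upper-quartile scaling gave 1823 genes that rose and moved the median of all genes to -0.12. One of the 9 fell (Fh1) with upper-quartile scaling, with the stricter filter and with thinned counts, so the count of 0 became 1. The test against 1.2-fold called 898 genes higher and 1347 lower and 0 of the 9. Without 1 library, 2522 to 2924 genes rose and 2155 to 2636 fell, and 5 to 6 of the 9 rose and 0 fell. In treated against young HSC, upper-quartile scaling gave 1633 higher and 3809 lower genes (2722 and 2633 with TMM) and 1 of the 9 lower. The stricter filter gave 1732 lower genes and 1 of the 9 lower. The test against 1.2-fold gave 801 and 1386 genes and 0 of the 9. Without 1 library, 2371 to 2846 genes rose, 2054 to 2553 fell and 5 to 7 of the 9 rose. In treated against untreated old HSC, where 109 genes rose and 61 fell, no filter gave 219 and 114, the 2 groups alone 164 and 96, the test against 1.2-fold 2 and 13, and DESeq2 137 and 70. Leaving out 1 library gave 17 to 121 and 31 to 55, with 17 and 31 without treated replicate 2, 31 and 38 without treated replicate 1, 40 and 37 without old replicate 2, and 52 and 39 without old replicate 1.

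Signs changed only for genes that were not called. Idh3g in old against young HSC was at -0.0799 with upper-quartile scaling, -0.0356 with the stricter filter and from -0.0123 to 0.053 without 1 library, and Ogdh at -0.0284 with upper-quartile scaling. In treated against untreated old HSC, Cs was at -0.00244 with the stricter filter, -0.00276 thinned, and from -0.0213 to 0.0295 without 1 library. Idh3b was at -0.0405 to 0.0229 without 1 library. Idh3g against young HSC was at -0.00169 in treated cells with upper-quartile scaling. The mean summed level of the 9 genes was 2650, 2843 and 2840 CPM in young, old and treated libraries with upper-quartile scaling, 2648 in young and 2826 in treated libraries unscaled, and 2493 to 2565, 2872 to 2920 and 2900 to 2921 CPM without 1 library. The cause of these shifts was not tested. Whether replicate numbers pair the libraries was left undecided. The r of deviations was -0.0808 to 0.132 over 9 same-numbered pairs and -0.0964 to 0.0723 over 18 differently numbered ones. Of the 9 libraries, 5 had their highest r with their own number. Between young and old HSC, same-numbered pairs were at 0.0628, 0.132 and 0.0636, and the others at -0.0964 to 0.0351. Same-numbered pairs with a treated library were at -0.0808 to -0.0205. With a replicate block, 2799 genes rose and 2783 fell in old against young HSC, 128 and 67 in treated against untreated old HSC and 2777 and 2578 in treated against young HSC, and of the 9 genes 6 rose, 0 were called and 6 rose.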
